A study of Homo sapiens with 8 samples.

Results

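Autophagy is the process by which cells enclose parts of their cytoplasm in a double membrane, the autophagosome, and deliver them to lysosomes for degradation. The ULK1 kinase complex starts the process, a lipid kinase complex built on Beclin 1 (encoded by BECN1) and ATG14 marks the membrane with phosphatidylinositol 3-phosphate, and WIPI proteins read that mark. Small ubiquitin-like proteins of the ATG8 family, the LC3 and GABARAP proteins, are then joined to the growing membrane, where they hold receptors such as p62 (SQSTM1) and the mitochondrial receptors BNIP3 and BNIP3L that carry the cargo. In tumour cells autophagy supplies nutrients under stress, and its activity is set largely by protein modification, so that mRNA values do not measure autophagic flux.

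The mRNA of 10 such genes, ULK1, BECN1, ATG14, WIPI1, MAP1LC3B, GABARAPL1, GABARAPL2, SQSTM1, BNIP3 and BNIP3L, was followed in HT29 cells, out of 38148 genes in the table. They were taken by name, with earlier results of these data known. HT29 is an established line of human colorectal cancer cells. Cells were left untreated or given the MEK inhibitor selumetinib at 1 μM for 24 h, which blocks activation of the kinases ERK1 and ERK2. After glyoxal fixation the cells were stained for cyclin B1 (CCNB1), a protein that accumulates towards mitosis, and separated by flow cytometry into a CCNB1-negative and a CCNB1-positive fraction. Poly(A) RNA of each fraction was sequenced from 2 libraries per treatment, which makes 8 libraries in 4 groups (2 treatments by 2 fractions), all from this 1 cell line. No label says that the 2 libraries of a group came from separate cultures, so p-values measure the spread between these libraries, which may be technical.

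The deposited values are log2 of reads per gene, with each library scaled to the largest one by its total read count, and a difference of 1 is therefore 2-fold. Whole reads could be recovered from them, and reads on genes numbered from 12696860 to 23916160 per library. Mitochondrially encoded genes took 4.44 to 7.8% of these reads in untreated and 11.9 to 14.8% in treated libraries, and the nuclear RNA MALAT1 took 0.303 to 0.386% and 2.01 to 4.42%. Titles and descriptions of the 8 libraries name opposite treatments and opposite fractions, and the groups here follow the descriptions, which are also the column names of the table. Under the titles every response given here would change sign and belong to the other fraction. CCNB1 mRNA was higher in the fraction described as positive, by 2.09 (log2) in untreated and 5.08 in treated cells, and 7 of 8 known ERK target genes were lower in the libraries described as treated in both fractions, EGR1 being higher. Of 9 markers of intestinal epithelium, 9 passed the filter for testing, and their summed level was 10768 to 12004 RPM (reads scaled to library size) in untreated and 4879 to 8612 in treated libraries. With selumetinib 2 of them were higher (VIL1 and CDX2) and 3 lower (EPCAM, KRT8 and KRT18) in the CCNB1-negative fraction, and 3 were higher (VIL1, CDX1 and CDX2) and 1 lower (EPCAM) in the CCNB1-positive one (limma). Of all genes tested, 38.2% were higher and 35.8% lower in the CCNB1-negative fraction, and 38.0% and 27.3% in the CCNB1-positive one. Of 9 markers of leukocytes, stroma and endothelium, 2 passed the filter (CD68 and COL1A1). COL1A1 was called higher in both fractions (log2 change 1.81 and 2.19), on 6 to 107 reads per library, and CD68 in neither. The others had at most 25 reads in any library (PECAM1), and CD3E and COL3A1 at most 1. The summed level was 7.53 to 9.11 RPM in untreated against 8.01 to 17.7 RPM in treated libraries. The part of these marker shifts in the values below was not tested. For the mitochondrial and MALAT1 shares, changes were also computed with libraries scaled to nuclear reads without MALAT1. That scaling moved the median change of all genes from 0.05 to 0.36 (CCNB1-negative cells) and from 0.17 to 0.42 (CCNB1-positive cells), and it is given below where it changed a call with selumetinib.

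The start regions of 6 of the genes are shown. They were chosen because 4 (ULK1, ATG14, WIPI1 and GABARAPL1) rose together, 1 (GABARAPL2) moved against GABARAPL1 and 1 (BNIP3) had almost no reads. Each line gives the 250 bases before the gene's start in RefSeq on GRCh38.p14, 5′ to 3′ on the gene's own strand. Capitals mark the E-box CACGTG, the letters bound by TFEB, TFE3 and other helix-loop-helix factors, or else the shorter core ACGTG that hypoxia-inducible factor (HIF) binds, which every CACGTG also holds. The windows lie at chr12:131894372-131894621 (plus strand) for ULK1, chr14:55411831-55412080 (minus) for ATG14, chr17:68457497-68457746 (minus) for WIPI1, chr12:10212627-10212876 (plus) for GABARAPL1, chr16:75566129-75566378 (plus) for GABARAPL2 and chr10:131981924-131982173 (minus) for BNIP3.
ULK1: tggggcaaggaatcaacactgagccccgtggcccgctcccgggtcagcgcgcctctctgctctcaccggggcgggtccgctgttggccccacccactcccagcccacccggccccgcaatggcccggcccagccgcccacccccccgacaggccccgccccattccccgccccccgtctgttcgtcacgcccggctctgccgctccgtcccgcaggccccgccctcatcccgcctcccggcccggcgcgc
ATG14: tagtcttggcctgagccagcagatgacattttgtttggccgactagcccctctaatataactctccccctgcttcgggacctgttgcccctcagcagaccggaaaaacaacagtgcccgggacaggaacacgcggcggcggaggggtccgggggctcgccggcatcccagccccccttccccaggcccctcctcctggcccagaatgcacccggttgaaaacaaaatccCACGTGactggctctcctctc
WIPI1: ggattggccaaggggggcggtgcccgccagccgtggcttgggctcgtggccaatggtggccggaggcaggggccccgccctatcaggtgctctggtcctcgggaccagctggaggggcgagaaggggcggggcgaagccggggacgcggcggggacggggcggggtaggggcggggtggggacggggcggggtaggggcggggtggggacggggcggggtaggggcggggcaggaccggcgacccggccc
GABARAPL1: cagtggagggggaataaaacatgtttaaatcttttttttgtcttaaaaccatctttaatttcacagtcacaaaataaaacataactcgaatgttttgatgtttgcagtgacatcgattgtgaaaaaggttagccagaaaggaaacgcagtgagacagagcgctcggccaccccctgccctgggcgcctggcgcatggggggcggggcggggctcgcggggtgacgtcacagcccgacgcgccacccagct
GABARAPL2: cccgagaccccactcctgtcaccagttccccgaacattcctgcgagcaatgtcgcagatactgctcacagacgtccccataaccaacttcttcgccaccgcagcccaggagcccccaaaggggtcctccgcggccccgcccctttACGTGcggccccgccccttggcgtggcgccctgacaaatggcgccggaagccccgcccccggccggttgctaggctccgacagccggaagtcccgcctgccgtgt
BNIP3: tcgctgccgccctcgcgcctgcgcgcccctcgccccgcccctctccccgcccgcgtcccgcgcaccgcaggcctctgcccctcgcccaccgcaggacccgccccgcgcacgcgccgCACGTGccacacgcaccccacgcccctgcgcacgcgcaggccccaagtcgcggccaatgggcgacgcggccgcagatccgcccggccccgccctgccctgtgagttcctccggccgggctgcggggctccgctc

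Windows were found for 9 of the 10 genes, with BNIP3L the gene without an entry. These genes had 11 windows, with several for SQSTM1. The counts below are of genes, whereas the background shares are of windows. Searched on both strands, CACGTG was present in the windows of 2 of the 9 genes, ATG14 (at -21 from the start) and BNIP3 (at -134), against 6.35% of 35114 promoter windows of the same length. ACGTG was present in 3, ATG14, BNIP3 and GABARAPL2 (at -105), against 18.5% of windows, and the FOXO motif TGTTTAC in 0, against 2.98%. The 4 genes shown that rose thus did not share any of these motifs in this window. BNIP3L, which also rose, had no window, and other forms of the motifs were not searched. A match describes letters only and does not show that a factor binds.

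Of the 10 genes, 9 had a mean of at least 1 RPM over the 8 libraries and were tested by limma with Benjamini-Hochberg adjustment over all 14219 genes, with an adjusted p under 0.05 as threshold. In CCNB1-negative cells 5 of the 9 were higher with selumetinib (ULK1, ATG14, WIPI1, GABARAPL1 and BNIP3L) and 1 was lower (GABARAPL2). In CCNB1-positive cells the same 5 were higher, SQSTM1 was also higher, and GABARAPL2 was again lower. Selumetinib changed much of the transcriptome: 74.1% of all genes tested passed in the CCNB1-negative fraction and 65.3% in the CCNB1-positive one, so that 6 and 7 of 9 genes changed is close to that background. Higher calls made up 38.2% and 38.0% of all genes, and lower calls 35.8% and 27.3%. Rises of at least 2-fold covered 26.6% and 24.4% of all genes against 5 of the 9 genes in each fraction. In CCNB1-positive cells the log2 changes of ATG14 and BNIP3L were 0.99 and 0.93, under 2-fold, in the lowest of their alternative settings. Rises of at least 4-fold covered 10.8% and 8.55% of all genes against 2 and 3 of the 9. The median log2 change of the 9 genes was 1.63 (CCNB1-negative) and 1.40 (CCNB1-positive), beside medians of 0.05 and 0.17 over all genes tested. Because the genes were chosen with earlier results of these data known, these comparisons with all genes only describe them. In bulk samples such as these, fewer cells of a kind and less RNA per cell cannot be told apart.

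**Figure D1:**
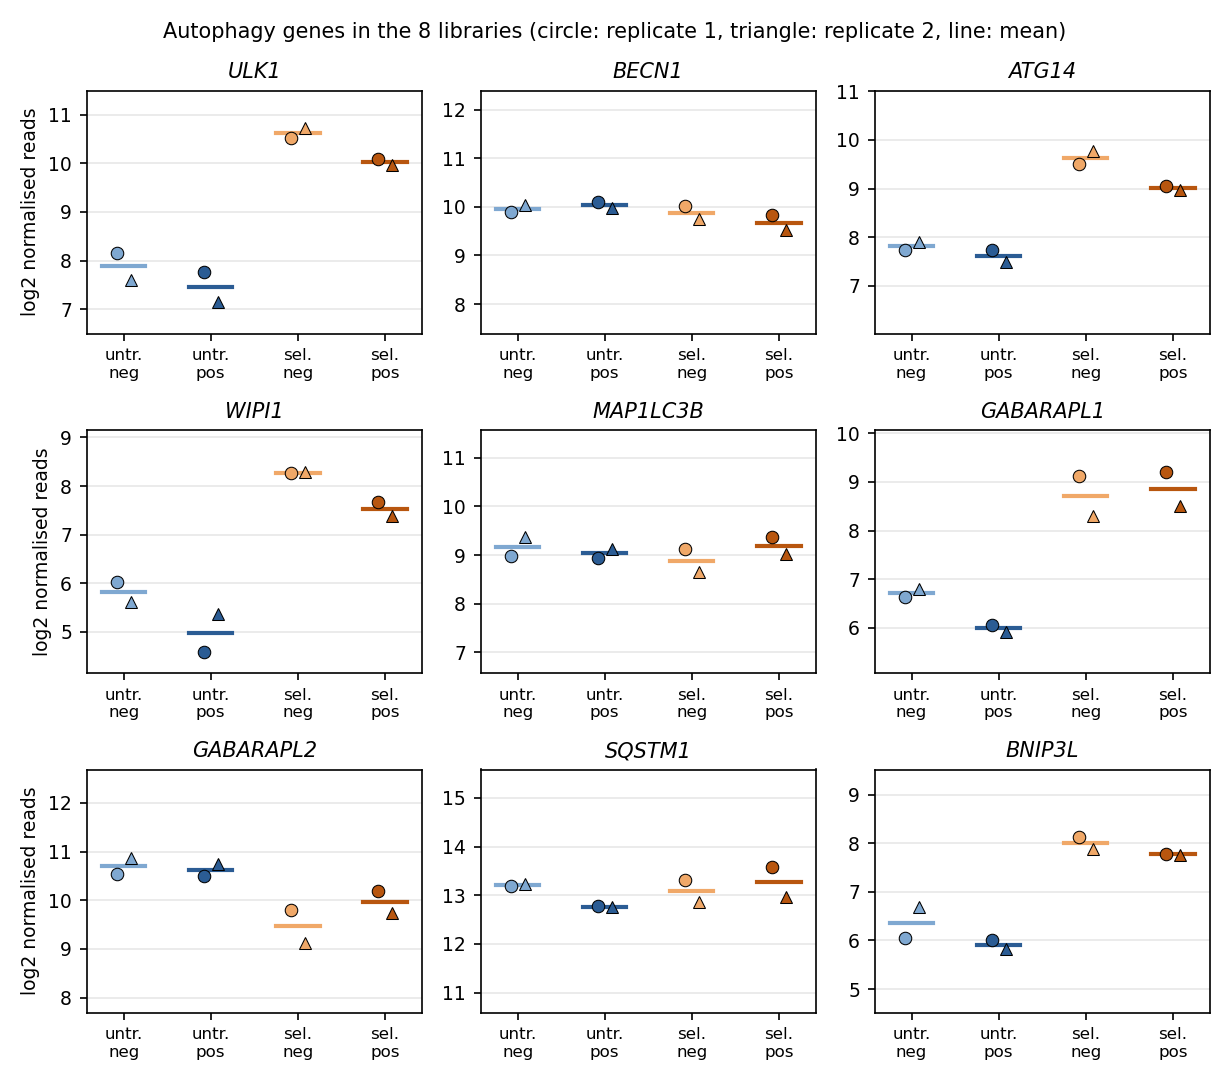
Log2 normalized reads (vertical axes, each spanning 5 units) of the 9 tested autophagy genes in the 4 groups, with 1 point per library and a line at the group mean. ULK1, ATG14, WIPI1, GABARAPL1 and BNIP3L are higher in all 4 treated libraries (orange) than in all 4 untreated ones (blue), GABARAPL2 is lower, and BECN1, MAP1LC3B and SQSTM1 overlap.

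ULK1 (ENSG00000177169, chr12:131894622-131923150, plus strand), the kinase that starts autophagosome formation, showed the largest mean response of the 9 genes over both fractions. Its log2 values were 8.15 and 7.61 in untreated CCNB1-negative cells, 7.76 and 7.14 in untreated CCNB1-positive cells, 10.51 and 10.73 in treated CCNB1-negative cells and 10.08 and 9.96 in treated CCNB1-positive cells. The lowest treated library thus lay well above the highest untreated one. The rise was 6.68-fold in CCNB1-negative cells, a log2 change of 2.74 ± 0.22 (SE, adjusted p = 1.3e-07 by limma), and 5.94-fold in CCNB1-positive cells, a log2 change of 2.57 ± 0.22 (adjusted p = 8.4e-07). In reads, these values stand on 129 to 263 reads in untreated and 634 to 1002 in treated libraries.

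The other subunits of the ULK1 complex did not move as a block. Of RB1CC1, ATG13 and ATG101, the scaffold and partner proteins of the kinase that could be tested, RB1CC1 rose (log2 change 0.69 and 0.62 in CCNB1-negative and CCNB1-positive cells), ATG101 fell (-1.38 and -0.99), and ATG13 stood at 0.20 and -0.04 without passing the threshold. ULK2, the close relative of ULK1, was too low to test. ATG101, which stabilizes ATG13, had log2 values of 10.39 to 10.63 in the 4 untreated and 8.92 to 9.58 in the 4 treated libraries, with adjusted p of 2e-06 and 7.6e-05 (limma). The kinase and this partner therefore moved in opposite directions in both fractions.

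ATG14 (ENSG00000126775, chr14:55366392-55411858, minus strand) directs the phosphatidylinositol 3-kinase complex to the site where autophagosomes form. Its log2 values were 7.73 and 7.91 in untreated CCNB1-negative, 7.73 and 7.48 in untreated CCNB1-positive, 9.50 and 9.76 in treated CCNB1-negative and 9.04 and 8.96 in treated CCNB1-positive cells. All treated libraries were above all untreated ones, and within treated cells both CCNB1-negative libraries were above both CCNB1-positive ones. The rise was 3.51-fold in CCNB1-negative cells (log2 change 1.81 ± 0.18, limma, adjusted p = 8.8e-07) and 2.64-fold in CCNB1-positive cells (1.40 ± 0.18, adjusted p = 1.9e-05).

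BECN1 (ENSG00000126581, chr17:42810134-42833350, minus strand), which encodes the core scaffold of the same complex, gave log2 values of 9.89, 10.04, 10.11 and 9.97 in the untreated libraries, CCNB1-negative first. The treated libraries gave 10.01 and 9.76 in CCNB1-negative and 9.83 and 9.53 in CCNB1-positive cells, overlapping with the untreated ones. The log2 change was -0.08 ± 0.16 in CCNB1-negative cells (limma, adjusted p = 0.67) and -0.36 ± 0.16 in CCNB1-positive cells (adjusted p = 0.064). The second value lies near the threshold and passed it under 6 of 16 alternative settings, with adjusted p between 0.011 and 0.56. Within each library the log2 ratio of ATG14 to BECN1 reads was -2.49 to -2.13 in untreated and -0.79 to 0.0028 in treated cells, so the 2 partners came closer in read number. Of the 6 other genes listed for this complex, UVRAG, the subunit that takes the place of ATG14 in a second form of the complex, rose (1.79 and 1.40), as did the catalytic subunit PIK3C3 (1.01 and 0.77). PIK3R4 and NRBF2 fell in CCNB1-negative cells (-0.39 and -0.68) and were at -0.20 and -0.19 in CCNB1-positive cells without passing the threshold.

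WIPI1 (ENSG00000070540, chr17:68420948-68457513, minus strand) encodes a protein that binds phosphatidylinositol 3-phosphate on the forming membrane. It had the lowest mean level per length of the 9 genes in untreated cells, in a range that overlapped with that of BNIP3L, with log2 values of 6.02 and 5.62 in CCNB1-negative and 4.58 and 5.38 in CCNB1-positive libraries, from 24 to 60 reads. The treated libraries gave 8.26 and 8.29 in CCNB1-negative and 7.68 and 7.38 in CCNB1-positive cells, from 106 to 195 reads. All 4 were above all untreated libraries. The log2 change was 2.45 ± 0.30 (5.47-fold, limma, adjusted p = 6.2e-06) in CCNB1-negative and 2.55 ± 0.30 (5.85-fold, adjusted p = 9.2e-06) in CCNB1-positive cells. With quantile normalization the change in CCNB1-positive cells was smaller, 1.5, and still past the threshold. Among the 10 other genes listed for reading this lipid mark or supplying membrane, ZFYVE1 (also called DFCP1, a marker of the membrane sites where autophagosomes arise) rose most in CCNB1-negative cells, by 2.86 ± 0.26 (adjusted p = 3.1e-07), and by 2.40 in CCNB1-positive cells. WIPI2, the relative of WIPI1, was at 0.02 and 0.07 and did not pass the threshold.

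**Figure D2:**
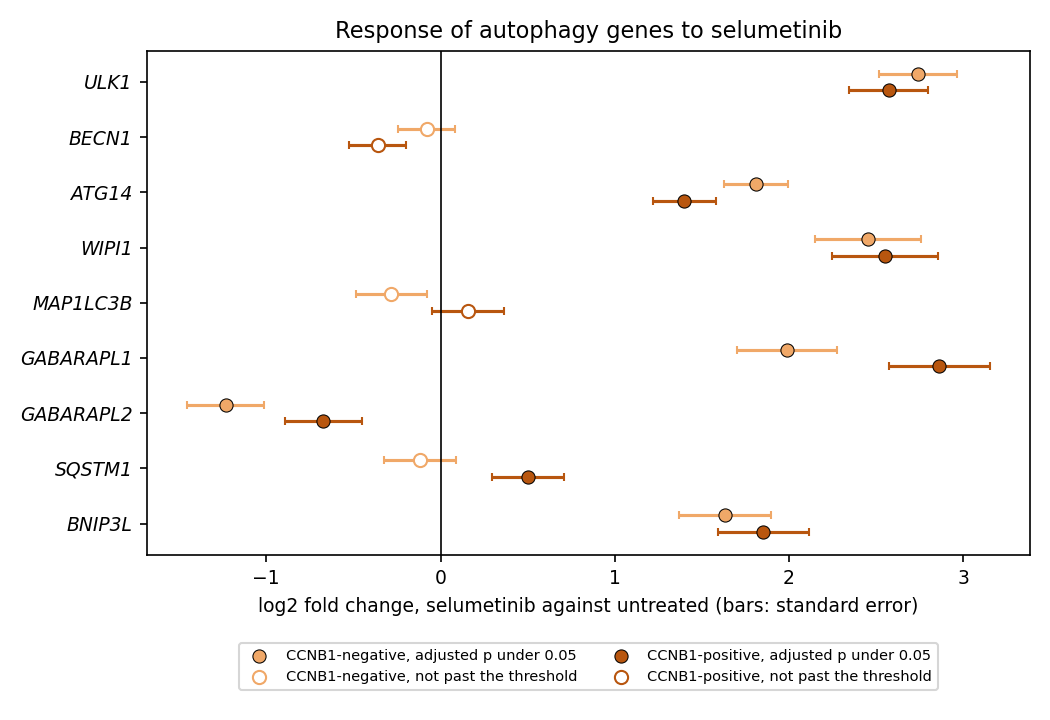
Log2 fold change with selumetinib (horizontal axis) of the 9 genes in CCNB1-negative (light) and CCNB1-positive (dark) cells, with standard errors from limma. Filled points passed the threshold: 5 genes lie above 1 in both fractions, GABARAPL2 lies below 0 in both, and SQSTM1 passed in CCNB1-positive cells with 0.50.

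The 3 ATG8 genes among the 10 took 3 courses. GABARAPL1 (ENSG00000139112, chr12:10212458-10223128, plus strand) had log2 values of 6.64 and 6.79 in untreated CCNB1-negative, 6.07 and 5.91 in untreated CCNB1-positive, 9.12 and 8.29 in treated CCNB1-negative and 9.20 and 8.51 in treated CCNB1-positive cells. All treated libraries were above all untreated ones, though the replicates of each treated group differed by 0.69 or more. The rise was 3.97-fold in CCNB1-negative cells (log2 change 1.99 ± 0.29, limma, adjusted p = 2.6e-05) and 7.28-fold in CCNB1-positive cells (2.86 ± 0.29, adjusted p = 2.4e-06).

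GABARAPL2 (ENSG00000034713, chr16:75566375-75577881, plus strand), a close paralogue, moved the other way. Its log2 values were 10.53 and 10.86 in untreated CCNB1-negative, 10.51 and 10.75 in untreated CCNB1-positive, 9.80 and 9.12 in treated CCNB1-negative and 10.18 and 9.73 in treated CCNB1-positive cells, so that all treated libraries were below all untreated ones. The fall was 2.35-fold in CCNB1-negative cells (log2 change -1.23 ± 0.22, limma, adjusted p = 0.00018) and 1.59-fold in CCNB1-positive cells (-0.67 ± 0.22, adjusted p = 0.016). The second call was lost when libraries were scaled to nuclear reads without MALAT1 (-0.42, adjusted p = 0.11), without untreated CCNB1-positive replicate 2 (-0.55, adjusted p = 0.10) and without treated CCNB1-positive replicate 2 (-0.45, adjusted p = 0.16).

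MAP1LC3B (ENSG00000140941, chr16:87383953-87404779, plus strand) encodes LC3B, the family member most used to mark autophagosomes. Its log2 values were 8.97, 9.37, 8.95 and 9.12 in the untreated libraries, CCNB1-negative first, against 9.12 and 8.66 in treated CCNB1-negative and 9.36 and 9.02 in treated CCNB1-positive cells, and the groups overlapped. The log2 change was -0.28 ± 0.20 (limma, adjusted p = 0.22) in CCNB1-negative and 0.16 ± 0.20 (adjusted p = 0.51) in CCNB1-positive cells. It passed in 0 of 16 alternative settings in either fraction. MAP1LC3B2, a near-identical copy of this gene on chromosome 12 with which reads may be shared, had 25 to 31 reads in untreated and 6 to 15 in treated libraries, against 238 to 585 for MAP1LC3B, and was below the filter.

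Levels of different genes can be compared per length, as RPM per kb of merged exons (RPKM). Of the summed RPKM of the ATG8 family, GABARAP took 53.3% ± 4.04 (SD, n = 2 libraries) in untreated CCNB1-negative and 53.6% ± 0.631 in untreated CCNB1-positive cells, and 64.7% ± 2.41 and 60.8% ± 2.15 in the corresponding treated groups. GABARAPL2 took 35.1% ± 3.88 and 35.7% ± 1.12 in the untreated and 12.3% ± 1.4 and 16.1% ± 0.625 in the treated groups. The share of MAP1LC3A, which encodes LC3A, was 1.39 to 3.58% in untreated and 11.4 to 12.5% in treated libraries, that of GABARAPL1 was 0.95 to 1.68% and 4.74 to 6.20%, and that of MAP1LC3B was 6.58 to 8.03% and 4.91 to 5.70%. By merged exons the 4 treated and 4 untreated libraries did not overlap for any of these 5 genes. With 2 libraries a group an exact permutation test of 1 pair of groups cannot go below a two-sided p of 0.333, so the shares are given without a test. MAP1LC3C took at most 0.06% in any library. The summed family RPKM was 57.8 to 68.2 in untreated and 68.2 to 97.7 in treated libraries. Shares depend on the length taken for each gene: with the canonical transcript in place of merged exons, GABARAPL2 was above GABARAP in untreated cells (51.3% against 37.4% in CCNB1-negative cells) and below it in treated cells (22.1% against 55.6%), while the group means shifted in the same direction with selumetinib for each of the 5 genes. With those lengths MAP1LC3B overlapped between treatments, at 7.49% in untreated CCNB1-negative replicate 1 against 7.51% in treated CCNB1-positive replicate 2.

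**Figure D3:**
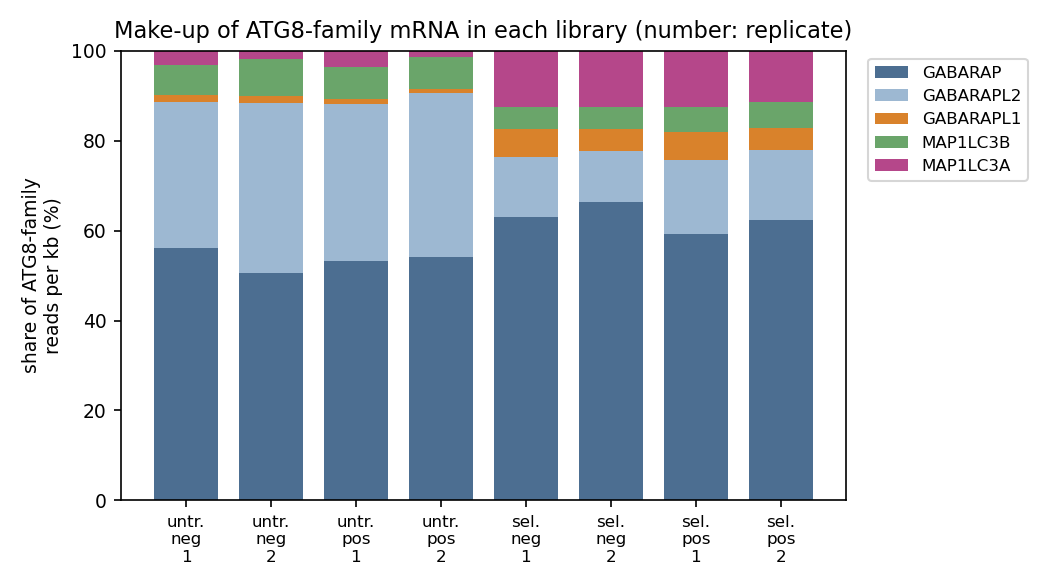
Share of each ATG8-family gene in the family's reads per kb of merged exons (vertical axis, %) in each of the 8 libraries, as stacked bars, with MAP1LC3C left out. The GABARAPL2 block is 32.4 to 37.9% in untreated and 11.4 to 16.5% in treated libraries, while the MAP1LC3A and GABARAPL1 blocks are larger in the treated ones.

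In the fitted values, MAP1LC3A rose by 2.62 ± 0.37 (log2, limma, adjusted p = 2.1e-05) in CCNB1-negative and 2.89 ± 0.37 (adjusted p = 1.7e-05) in CCNB1-positive cells, and GABARAP by 0.56 and 0.66. MAP1LC3A stood on 23 to 57 reads in untreated and 139 to 297 in treated libraries. The log2 ratio of GABARAPL1 to MAP1LC3B reads, without correction for length, was -3.21 to -2.33 in untreated and -0.51 to 0.0 in treated libraries.

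SQSTM1 (ENSG00000161011, chr5:179806398-179838078, plus strand), which encodes the cargo receptor p62, had the highest level per length of the 10 genes in every library, 38.5 to 53.6 RPKM untreated and 41.5 to 67.9 RPKM treated. Its log2 values were 13.18 and 13.24 in untreated CCNB1-negative, 12.77 and 12.76 in untreated CCNB1-positive, 13.31 and 12.87 in treated CCNB1-negative and 13.58 and 12.96 in treated CCNB1-positive cells. The untreated replicates lay within 0.06 of each other and the treated ones 0.45 and 0.62 apart. The log2 change was -0.12 ± 0.21 in CCNB1-negative cells (limma, adjusted p = 0.62) and 0.50 ± 0.21 (1.42-fold, adjusted p = 0.045) in CCNB1-positive cells. The rise in CCNB1-positive cells passed under 11 of 16 alternatives and rested in size on treated CCNB1-positive replicate 1, without which it was 0.19 (adjusted p = 0.48). It was also past the threshold neither with limma-voom on the recovered reads (0.36, adjusted p = 0.11) nor without the filter on low values (0.50, adjusted p = 0.11), nor without untreated CCNB1-positive replicate 1 (0.51, adjusted p = 0.12) or replicate 2 (0.50, adjusted p = 0.14), while quantile normalization gave 1.03.

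BNIP3L (ENSG00000104765, chr8:26383054-26505636, plus strand), also called NIX, and BNIP3 (ENSG00000176171, chr10:131966455-131982013, minus strand) encode related receptors on the outer mitochondrial membrane that bind LC3 and GABARAP proteins, and both are known targets of HIF. BNIP3L gave log2 values of 6.05 and 6.69 in untreated CCNB1-negative, 6.0 and 5.83 in untreated CCNB1-positive, 8.13 and 7.87 in treated CCNB1-negative and 7.79 and 7.75 in treated CCNB1-positive cells. All treated libraries were above all untreated ones. The rise was 3.10-fold (log2 change 1.63 ± 0.26, limma, adjusted p = 6.7e-05) in CCNB1-negative and 3.61-fold (1.85 ± 0.26, adjusted p = 3.9e-05) in CCNB1-positive cells. It remained past the threshold under 15 of 15 alternatives, although quantile normalization brought the change in CCNB1-positive cells to 0.93.

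BNIP3 had 0 reads in 7 libraries and 2 reads in treated CCNB1-positive replicate 2, and was not tested. A count of 0 allows up to 3 reads per library, between 0.125 and 0.236 RPM. This limit covers counting error only, since the reads carry no molecular identifiers. No fold change is given because both groups are under it. A rise of BNIP3 was not detectable at this depth, and the pair of receptor genes thus differed in level in the same cells: BNIP3L had 52 to 82 reads in untreated and 137 to 196 in treated libraries.

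Per length, the order in untreated libraries was SQSTM1, GABARAPL2 (20.2 to 25.8 RPKM), BECN1 (6.19 to 7.2), MAP1LC3B (4.09 to 5.48), ATG14 (1.49 to 2.0), ULK1 (0.78 to 1.56), GABARAPL1 (0.62 to 1.14), BNIP3L (0.57 to 1.04) and WIPI1 (0.29 to 0.80). The ranges from ATG14 downwards overlapped with that of the next gene, and those above it did not. In treated libraries SQSTM1 was again highest, followed by GABARAPL2 (7.75 to 16.2 RPKM), ULK1 (5.48 to 9.32), ATG14 (4.15 to 7.22), BECN1 (4.8 to 6.71), GABARAPL1 (3.24 to 6.06) and MAP1LC3B (3.35 to 5.46), and from GABARAPL2 to MAP1LC3B each range overlapped with the next. By merged exons ULK1 was below BECN1 in each of the 4 untreated libraries and above it in each of the 4 treated ones. These orders, and those given above for WIPI1 and SQSTM1, depend on the length taken for each gene. Canonical transcript lengths were not applied to them. BNIP3L (2.17 to 2.83) and WIPI1 (2.05 to 3.83) had the lowest mean levels apart from BNIP3 in each treated group, although the range of WIPI1 overlapped with those of GABARAPL1 and MAP1LC3B.

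Over all genes tested, the 4 treated libraries lay above the 4 untreated ones for 38.3% and below for 31.4%. This held for 5 and 1 of the 9 autophagy genes. Being called higher in both fractions applied to 33.3% of all genes and 5 of the 9, and being called lower in both to 26.0% and 1 of the 9.

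The CCNB1-positive and CCNB1-negative fractions separate cells late in the cycle from the rest. In untreated cells 0 of the 9 passed the threshold by limma or limma-voom (limma called 2.87% of all genes), and 2 had an unadjusted p under 0.05: WIPI1 at -0.84 ± 0.30 (CCNB1-positive minus CCNB1-negative, adjusted p = 0.20) and GABARAPL1 at -0.73 ± 0.29 (adjusted p = 0.26). In treated cells 1 of the 9 passed, against 21.6% of all genes (7.87% lower in CCNB1-positive cells): ATG14 was 1.54-fold lower in CCNB1-positive cells (log2 difference -0.63 ± 0.18, adjusted p = 0.026). This call was lost without treated CCNB1-negative replicate 2 (-0.50, adjusted p = 0.19) and without treated CCNB1-positive replicate 1 (-0.67, adjusted p = 0.11) or replicate 2 (-0.59, adjusted p = 0.13). ULK1 (-0.60 ± 0.22, adjusted p = 0.071) and WIPI1 (-0.74 ± 0.30, adjusted p = 0.096) were lower in both CCNB1-positive libraries than in both CCNB1-negative ones without passing. ULK1 passed under 9 of 17 alternative settings (adjusted p from 0.00088 to 0.34) and WIPI1 under 4 of 16 (from 0.02 to 0.34), and limma-voom called both (ULK1 at -0.64, adjusted p = 0.017, and WIPI1 at -0.77, adjusted p = 0.02), which made 3 calls. The remaining 6 genes ranged from -0.23 (BNIP3L) to 0.49 (GABARAPL2). A block for each pair of fractions sharing treatment and replicate number was also tried, a pairing that the labels do not establish. With it, 4 genes passed by limma in untreated cells (SQSTM1, GABARAPL1, ULK1 and WIPI1, each lower in CCNB1-positive cells, adjusted p from 0.0066 to 0.047). In treated cells 5 passed (ATG14, ULK1 and WIPI1, lower, and GABARAPL2 and MAP1LC3B, higher). The shares of all genes given above are from the fit without this block, so these counts have no background here.

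The difference between the responses of the fractions, the interaction term of the same model, passed the threshold for 0 of the 9 genes, against 5.33% of all genes. The largest were GABARAPL1, whose rise was greater in CCNB1-positive cells by 0.87 ± 0.41 (limma, adjusted p = 0.25), and SQSTM1, by 0.62 ± 0.29 (adjusted p = 0.25). Before adjustment 0 of the 9 were past 0.05, and limma-voom on the recovered reads called none of them either. This count also depended on the pairing: with the block for pairs of fractions, 3 of the 9 passed by limma, SQSTM1 (0.62, adjusted p = 0.0039), GABARAPL2 (0.56, adjusted p = 0.0081) and GABARAPL1 (0.87, adjusted p = 0.014), each with a change that was more positive in CCNB1-positive cells. The share of 5.33% is from the fit without this block and is no background for that count.

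A list of 52 other autophagy genes gives the rest of the pathway, and 49 of them could be tested. In CCNB1-negative cells 20 were higher and 11 lower with selumetinib, and in CCNB1-positive cells 21 were higher and 4 lower (limma), with median log2 changes of 0.20 and 0.32. Rises thus made up 40.8% and 42.9% of the 49, near the background of 38.2% and 38.0%, and falls 22.4% and 8.16%, against 35.8% and 27.3% of all genes. Of the 49, 38.8% were higher in both fractions, against 33.3% of all genes. By role, 11 of these genes belong to the conjugation machinery that joins ATG8 proteins to the membrane. Of them, 4 were higher in both fractions (ATG7, ATG10, ATG4C and ATG16L2), against 33.3% of all genes. Lower in both were 2 (ATG3 and ATG16L1), against 26.0% of all genes. ATG7, the E1-like enzyme that activates ATG8 proteins, rose by 2.03 in CCNB1-negative cells, and ATG3, the E2-like enzyme that takes them over from ATG7, fell by 1.61 ± 0.18 (adjusted p = 2.2e-06) and 1.00 ± 0.18 (adjusted p = 0.00026). ATG3 had log2 values of 11.47 to 11.90 in untreated and 9.87 to 10.66 in treated libraries. ATG16L2, a relative of ATG16L1, had the second largest rise on the list in CCNB1-positive cells, 2.46 ± 0.25 (adjusted p = 2.3e-06).

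Of 11 other cargo receptors tested, 5 were higher in both fractions (OPTN, NBR1, CALCOCO2, CCPG1 and WDFY3), by 0.39 to 1.27, and 3 were lower in CCNB1-negative cells (NCOA4, FKBP8 and FUNDC1). Of all genes tested, 33.3% were higher in both fractions and 35.8% lower in CCNB1-negative cells. FUNDC1, another mitophagy receptor, was at -1.03 in CCNB1-negative cells (adjusted p = 0.0050) and at -0.29 in CCNB1-positive cells without passing. Of 6 genes for fusion with lysosomes, TECPR1 and EPG5 rose in both fractions (1.72 and 1.08, and 1.07 and 0.95) and VAMP8 fell in CCNB1-negative cells (-0.42), while STX17 (0.09 and 0.27) and SNAP29 (-0.17 and 0.17) did not pass. Between the fractions, 0 of the 49 passed in untreated cells (limma, 5 with an unadjusted p under 0.05 and 0 by limma-voom), against 2.87% of all genes. In treated cells 6 of the 49 passed, against 21.6% of all genes, with ATG3 and ATG101 higher and TECPR1, UVRAG, ZFYVE1 and NBR1 lower in CCNB1-positive cells. The difference of the responses passed for 0 of the 49 (limma, 5 with an unadjusted p under 0.05 and 0 by limma-voom), against 5.33% of all genes. With the block for pairs of fractions these counts were 5, 19 and 10, while the shares of all genes are from the fit without it.

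**Figure D4:**
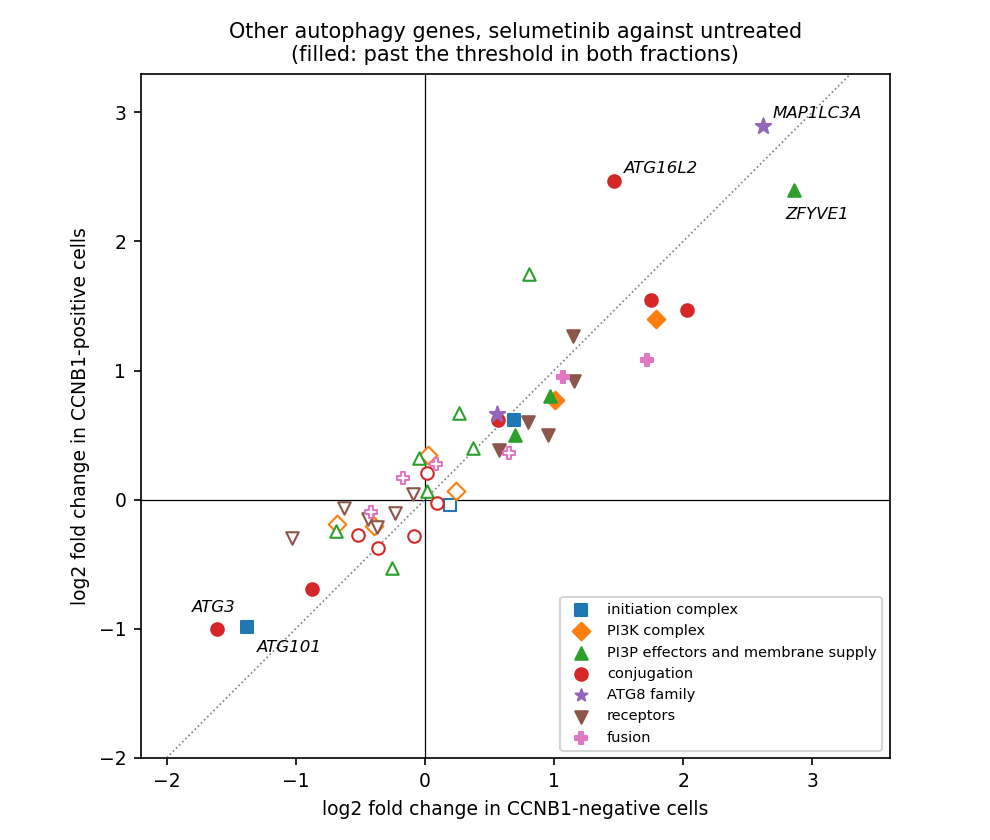
Log2 fold change with selumetinib of the 49 other autophagy genes in CCNB1-negative (horizontal axis) and CCNB1-positive cells (vertical axis), with 1 point per gene, a symbol for each role and a dotted line of equality. Filled points passed the threshold in both fractions: 19 of them lie up and to the right, led by MAP1LC3A and ZFYVE1, and 3, ATG3, ATG101 and ATG16L1, lie down and to the left.

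Among 14 regulators of the pathway, 12 could be tested, and 6 were higher and 1 lower in each fraction (limma), beside 38.2% and 38.0% of all genes higher and 35.8% and 27.3% lower. FOXO3, FOXO1 and FOXO4, transcription factors known to act on autophagy genes, were higher in both, FOXO3 by 2.61 and 2.40. DEPTOR, an inhibitor of the kinase mTOR, rose by 4.45 and 3.61, with 101 to 200 reads in untreated and 959 to 3186 in treated libraries, and TSC1 and TSC2, which restrain mTOR, rose by 0.86 to 1.37. AKT1S1 (PRAS40), likewise an inhibitor of mTOR, fell by 0.94 in both, so the listed inhibitors of mTOR did not all move together. MTOR, RPTOR and PRKAA1 did not pass the threshold in either fraction. TFEB, often called the master regulator of lysosome and autophagy genes, was at -0.34 and -0.35 and TFE3 at -0.30 and 0.01, and neither passed the threshold.

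Because BNIP3 and BNIP3L are HIF targets, 12 other HIF targets were followed. In CCNB1-negative cells 4 were higher and 4 lower, beside 38.2% and 35.8% of all genes. In CCNB1-positive cells 6 were higher and 3 lower, beside 38.0% and 27.3%. The list thus went both ways, as all genes tested did, and a part of HIF in the rise of BNIP3L was not tested. NDRG1 (4.76 and 4.50) and PFKFB4 (3.36 and 2.45) rose most, whereas CA9, widely used as a marker of hypoxia, fell (-0.98 and -0.57), P4HA1 fell (-0.48 and -0.65) and EGLN3 fell in CCNB1-negative cells (-0.49).

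The log2 values of each gene over the 8 libraries were centred on their mean, and genes with clone or LINC identifiers as symbols were left out. The genes that then followed ULK1 most closely were CREBRF at a root mean square distance of 0.07, C3orf35 at 0.11 and NAALADL2 at 0.11. CREBRF, for example, had log2 changes of 2.82 (CCNB1-negative) and 2.58 (CCNB1-positive). Of the other autophagy genes among the 10, WIPI1 was nearest at 0.40 and GABARAPL2 farthest at 1.89. These distances describe 8 libraries that share treatment and depth.

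For several of these genes another gene lies on the opposite strand within the same interval in GENCODE release 44: FBXO34 for ATG14, ARSG for WIPI1, CNTD1 and PSME3 for BECN1, GABARAPL1-AS1 for GABARAPL1, FBXO31 for MAP1LC3B, MGAT4B and MRNIP for SQSTM1, and PNMA2 for BNIP3L. The library kit marks strand, but whether the counting of this table used it is not given in the sources used here, so reads of such partners may be included.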

How the data were processed

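mRNA-seq libraries of HT29 cells were made with a directional kit after poly(A) selection. The authors used Trim Galore 0.5.0 for trimming, HISAT2 2.1.0 with GRCh38 for mapping and SeqMonk for quantification, and deposited log2 values normalized to total read count. Their annotation release is not given in the sources used here, and their own test was DESeq2. A gene with no read carries the value that 0.9 reads would have. Here, 2 raised to each value, after removal of 1 constant per library, was within 0.05 of a whole number for 100.0% of genes with up to 10000 reads. Of the gene identifiers, 99.3% were found in GENCODE release 44.

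Genes whose mean log2 value reached 4.58 (1 RPM) entered a limma 3.58.1 fit with mean-variance trend (R 4.3.3) over all 4 groups, with no covariate, two-sided. The fit was also run on simulated reads, drawn without the shared deviations described below, and no result here rests on that run. Other steps used Python 3.11.15. The 10 genes and the lists were chosen with earlier results of these data known. All 10 genes are named; of the lists of other autophagy genes and HIF targets, the 2 largest rises and falls per fraction follow that rule, and further list members were named after their values were seen. The 3 genes most like the gene of the 10 with the largest response were taken by root mean square distance. Genes with clone or LINC identifiers as symbols were left out of that search. Replicates differed by more than sampling noise, and all 8 libraries were kept. Same-numbered libraries of the 2 fractions deviated together within a treatment (r = 0.35 and 0.43 over 14219 genes) but not across treatments (-0.09 to 0.08), and no label says what a number marks. Alternatives were another threshold, filter, scaling, pseudocount, block, model or test, each library left out, and, added after seeing the data, canonical transcript lengths.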

Additional observations from a re-analysis of the deposited data

How the results depend on the processing

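The rises of ULK1, ATG14, WIPI1, GABARAPL1 and BNIP3L in both fractions, and the fall of GABARAPL2 in CCNB1-negative cells, passed the threshold under every alternative that tested them. A minimum of 10 RPM left out WIPI1, GABARAPL1 and BNIP3L, so that the calls among the 10 genes were 3 (CCNB1-negative cells) and 4 (CCNB1-positive cells). Scaling to nuclear reads without MALAT1 moved the median change of all genes from 0.05 to 0.36 and from 0.17 to 0.42. Between treated fractions, where 1 of the 10 genes was called, an adjusted p under 0.01 and a 2-fold requirement each gave 0, quantile normalization, a model of only the groups compared and limma-voom each gave 3, and leaving out 1 library gave 0 to 2. Among the 49 other autophagy genes, a 2-fold requirement gave 14 calls (CCNB1-negative cells), 10 (CCNB1-positive cells) and 0 between treated fractions. There, against 6 calls, an adjusted p under 0.01 and no filter each gave 1, quantile normalization 11, and leaving out 1 library from 1 (without treated CCNB1-negative replicate 2 or CCNB1-positive replicate 1) to 13 (without treated CCNB1-negative replicate 1). Quantile normalization gave 1 call for the difference of responses, and leaving out 1 library 0 to 1 there and between untreated fractions.

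With the replicate number as a block, 6 and 8 of the 10 genes were called with selumetinib (BECN1 being added in CCNB1-positive cells, adjusted p = 0.044), 0 between untreated fractions, 2 between treated fractions and 0 for the difference of responses, against 6, 7, 0, 1 and 0 without it. The corresponding calls among other autophagy genes were 33, 27, 0, 9 and 0. With a block for each pair of fractions sharing treatment and number, which the labels do not establish, 4 of the 10 genes were called between untreated fractions, 5 between treated ones and 3 for the difference of responses, and 5, 19 and 10 other autophagy genes. The share of all genes called under either block is not given here.

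Only values that had not passed the threshold changed sign. With quantile normalization, BECN1 and SQSTM1 in CCNB1-negative cells came to 0.035 and 0.46, MAP1LC3B in CCNB1-positive cells to -0.0056, and the difference of responses to -0.43 for WIPI1 and -0.18 for BNIP3L. With nuclear scaling, BECN1, MAP1LC3B and SQSTM1 in CCNB1-negative cells came to 0.23, 0.032 and 0.20. Leaving out 1 library gave ranges of -0.48 to 0.14 (ULK1), -0.30 to 0.50 (WIPI1) and -0.10 to 0.54 (BNIP3L) for the difference of responses, -0.20 to 0.04 (BECN1) and -0.34 to 0.11 (SQSTM1) for the response of CCNB1-negative cells, -0.016 to 0.33 for that of MAP1LC3B in CCNB1-positive cells, -0.33 to 0.059 (MAP1LC3B) and -0.23 to 0.10 (GABARAPL2) between untreated fractions, and -0.27 to 0.56 (GABARAPL1) and -0.13 to 0.49 (SQSTM1) between treated fractions. The cause was not tested. With 2 libraries a group, leaving 1 out assumes that the lone library varies like the other groups. Depth limits WIPI1, BNIP3L and GABARAPL1, with under 100 reads in each untreated library, and BNIP3.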

Other observations

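RETREG1, a receptor for autophagy of the endoplasmic reticulum, was below the filter on low values and was chosen for mention after its values were seen. It had 6, 8, 6 and 2 reads in the untreated libraries, CCNB1-negative first, and 68, 50, 122 and 47 in the treated ones. Without the filter its log2 change was 3.55 ± 0.66 in CCNB1-negative cells (limma, adjusted p = 0.0010) and 4.8 ± 0.66 in CCNB1-positive cells (adjusted p = 0.00021), with an imprecise size because the untreated counts are so low. ULK2 and MAP1LC3C, also under the filter, were at 0.39 and 0.90 and at 0.41 and 0.35 without it and did not pass the threshold.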
